A study of Mus musculus with 6 samples.

Results

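Heme synthesis enzymes are described here across stem cells from mice on 2 diets. The members are the 8 genes Alas1, Alas2, Alad, Uros, Urod, Cpox, Ppox and Fech, found by symbol among the 21878 rows of each library's table, with 1 row each. The enzyme of the step between Alad and Uros is not analysed here. RNA was sequenced from bone marrow cells of wild-type (WT) mice, sorted for hematopoietic stem cells of the long-term kind (LT-HSCs) with a gate negative for lineage antigens, CD34 and CD135 and positive for Kit and Sca1. One group of mice had been kept for 3 months on food without serine and glycine, the serine/glycine-free diet (SGFD), and the other on a control diet (CD). Each diet has 3 libraries. Whether a library stands for 1 mouse or for several is not stated in the labels; the p-values below therefore reflect the scatter among libraries, part of which may be technical. The labels used here give neither the age nor the sex of the mice.

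Heme is made from glycine and succinyl-CoA. The first enzyme, aminolevulinate synthase (ALAS), joins them in the mitochondrion, the following enzymes work in the cytosol, and the last steps return to the mitochondrion, where ferrochelatase inserts iron into protoporphyrin. ALAS1 is the form present in all cells and is held down by heme itself, while ALAS2 is the form of erythroid cells, where most heme is made. Other blood cells need heme for cytochromes, catalase and peroxidases. As glycine is the substrate of the first step, the comparison asks what a diet free of glycine and serine did to the mRNAs of this pathway.

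The libraries held between 18683959 and 19846798 fragments, recovered from the deposited values as whole multiples of a step per gene. Levels are in FPKM, which divides fragments by gene length and by the library's total, so levels of different genes can be set side by side. Each test was made with limma on log2(FPKM + 1) over 10620 genes, those that reached 1 FPKM in 3 or more libraries, and genes with a Benjamini-Hochberg adjusted p under 0.05 are said to pass. With SGFD 59.4% of all tested genes passed, 17.7% higher and 41.8% lower, and the 3 values of one diet lay wholly beyond those of the other for 65.2%. The typical tested gene had a log2 fold change of -0.13 (the median). The LT-HSC markers Hlf, Mecom, Procr and Fgd5 were measured in all 6 libraries, and each was lower with SGFD. Hlf had 21.9 ± 0.779 FPKM with SGFD and 56.2 ± 0.759 FPKM with CD (SD, n = 3 each). Cd34 and Flt3, the gene of CD135, encode antigens that the gate selects against, but were measured as well. Cd34 had 429 ± 8.58 FPKM with SGFD and 471 ± 15.4 FPKM with CD. Flt3 had 90.5 ± 3.72 FPKM with SGFD and 114 ± 1.19 FPKM with CD. Kit, which the gate selects for, had 71.4 ± 2.06 FPKM with SGFD and 122 ± 0.843 FPKM with CD. All 4 genes of the gate, Kit, Ly6a (Sca1), Cd34 and Flt3, passed lower, against 2 after median-ratio scaling.

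Sequence before the annotated starts is shown for the erythroid ALAS gene, as a 30-base stretch around a GATA motif, and for Urod and Ppox, whose mRNAs passed in opposite directions, as the whole 250-base window. All come from RefSeq promoters of the build GRCm38.p6.
The Alas2 stretch is chrX:150547319-150547348 on the plus strand, with a GATA motif (AGATAA, here read on the other strand) in capitals:
Alas2: ctactttgctttTTATCTttagcagaggcc
The Urod window is chr4:116994414-116994663 on the minus strand, with an E-box (CACGTG) and a CCAAT box (CCAAT or its reverse complement) in capitals:
Urod: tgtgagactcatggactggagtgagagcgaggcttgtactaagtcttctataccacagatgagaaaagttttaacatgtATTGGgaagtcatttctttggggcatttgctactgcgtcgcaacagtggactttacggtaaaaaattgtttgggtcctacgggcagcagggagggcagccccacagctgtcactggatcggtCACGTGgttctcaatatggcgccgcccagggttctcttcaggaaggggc
The Ppox window is chr1:171281187-171281436 on the minus strand, with 4 CCAAT boxes in capitals:
Ppox: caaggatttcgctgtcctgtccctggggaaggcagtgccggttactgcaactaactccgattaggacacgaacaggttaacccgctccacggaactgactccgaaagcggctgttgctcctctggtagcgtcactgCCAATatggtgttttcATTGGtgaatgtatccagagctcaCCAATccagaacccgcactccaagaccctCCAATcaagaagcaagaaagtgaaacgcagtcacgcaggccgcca

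Motifs were searched on both strands in the 250 bases before each of 32851 RefSeq starts. Of the 8 members 7 had a RefSeq promoter to search, all but Fech. The E-box, found in 6.02% of windows, is present in Alad, Urod and 1 of the 2 windows of Uros, where it lies at the far edge, 250 bases before the start. The CCAAT box is common, with 33.8% of windows holding at least 1, and Ppox has 4, Alad up to 2 and Urod 1. The GATA motif, present in 9.99% of windows, was matched among the members in Alas2. The antioxidant response element core (TGACNNNGC), held by 10.2% of windows, had no match in the windows of these 7, and the TATA box as TATAAA, held by 12.4%, had a match in Alas2. Cpox and both windows of Alas1 had no match to any of these 5 motifs. A motif of the nuclear respiratory factor NRF1 was searched at first, matched in Alas1 and Uros, and is not among the 5. Its share over all windows is not given here, so these matches cannot be set against a background. Both Alas1 windows lie inside the gene as GENCODE places it, which begins at 106248654. A match describes letters and is not a measured binding site.

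Alas1, which encodes the ALAS form of non-erythroid cells, was 1.87-fold higher with SGFD, while genes of the later steps that passed changed less, in both directions. Alas1 had 32.2, 31.6 and 31.3 FPKM in the SGFD libraries, against 16.4, 17.6 and 16.9 FPKM in the CD libraries. The SGFD libraries lay in a narrow band well above the CD libraries. The mean was 31.7 ± 0.447 FPKM with SGFD and 16.9 ± 0.6 FPKM with CD (SD, n = 3 each). The log2 fold change was 0.87 ± 0.05 (SE), with a 95% interval from 0.75 to 0.98 (limma, adjusted p = 6.95e-07). Of all 10620 tested genes 133 had a larger log2 fold change. The libraries held 2016, 2061 and 1928 fragments of Alas1 with SGFD and 1022, 1079 and 1035 with CD. For Alas1 the spread between libraries was of the size of the counting error: 1.41% of the mean with a counting error of 2.24% in SGFD, and 3.54% with 3.09% in CD. In SGFD the spread of Urod was 1.36% with a counting error of 2.96%. It was larger than the counting error for Cpox, at 12.2% with 3.89%, and for Ppox, at 14.8% with 4.54%. In bulk libraries fewer cells of a type and less RNA per cell cannot be told apart, nor can more cells and more RNA per cell. Alas1 lies on chromosome 9 from 106233455 to 106248654 on the minus strand in GRCm38, per GENCODE.

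Alas2, the erythroid isoenzyme, was close to absent in every library. It is listed at 0 in all 3 SGFD libraries, against 0.0791, 0.0804 and 0.0268 FPKM in the CD libraries. Those CD values are 3, 3 and 1 fragments. A count of 0 allows up to 3 fragments per library, for counting error alone, as many as the highest CD libraries held. Alas2 was below the filter and was not tested with the other members; without the filter it was lower with SGFD, at a log2 fold change of -0.09 (limma, adjusted p = 0.0444), a value that rests on 7 fragments. The fragments of ALAS genes were thus almost all from Alas1, 6005 with SGFD and 3136 with CD over the 3 libraries of each diet. Alas2 lies on chromosome X from 150547375 to 150570638.

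**Figure D1:**
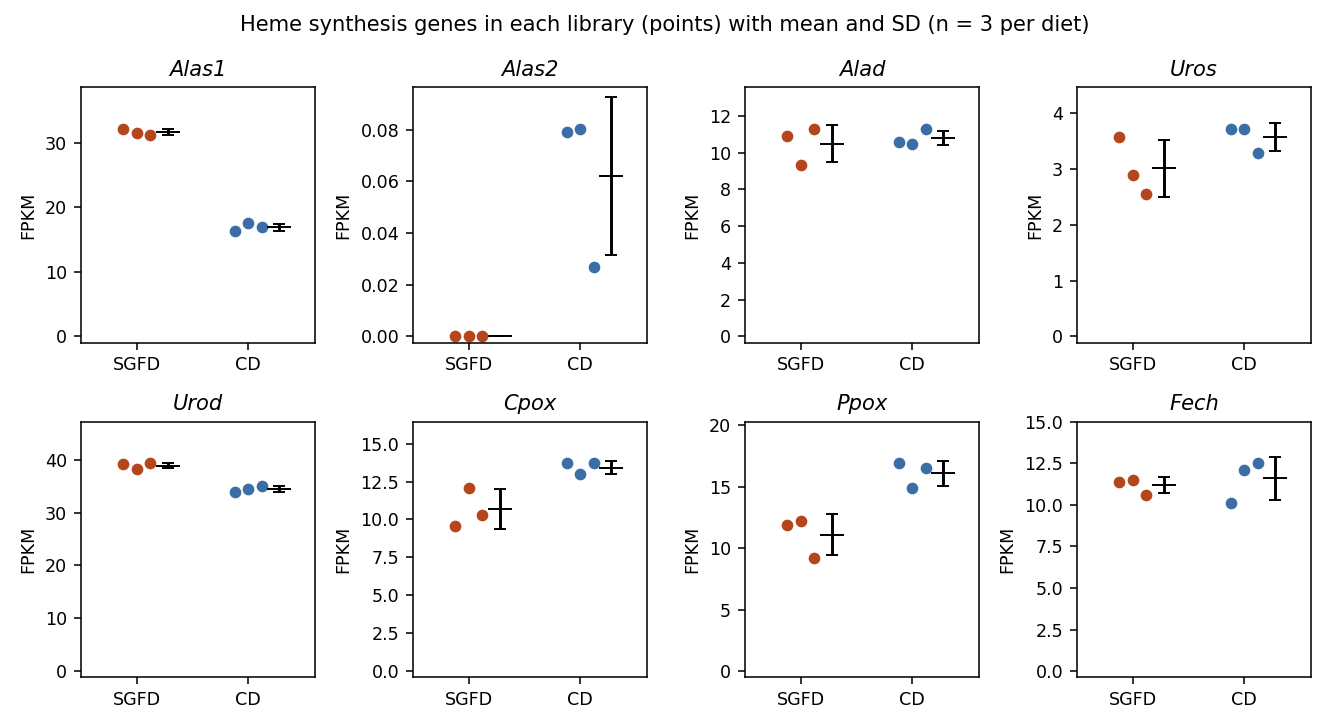
FPKM of the 8 heme synthesis genes in each library, SGFD left and CD right in every panel, each panel with its own linear axis; points are libraries, and the bar beside them is the mean with its SD (n = 3 per diet). Alas1 sits near 31.7 FPKM in SGFD and 16.9 FPKM in CD, the Cpox and Ppox points are lower in SGFD, and Alad and Fech overlap between diets.

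The cytosolic steps were measured by Alad, Uros and Urod, of which Urod alone passed. Alad encodes aminolevulinate dehydratase, which makes porphobilinogen and is a zinc enzyme. It had 10.9, 9.34 and 11.3 FPKM with SGFD, against 10.6, 10.5 and 11.3 FPKM with CD. The diets overlapped, and the log2 fold change was -0.04, with a 95% interval from -0.21 to 0.13 (limma, adjusted p = 0.682). Uros encodes uroporphyrinogen III synthase, which closes the ring of the future porphyrin. It was the lowest tested member, with 3.58, 2.9 and 2.56 FPKM with SGFD and 3.71, 3.72 and 3.28 FPKM with CD. Its diets overlapped through SGFD replicate 1, and the log2 fold change of -0.19 had an interval from -0.43 to 0.04 (limma, adjusted p = 0.136). Without SGFD replicate 1 that value was -0.29 and passed (limma, adjusted p = 0.0388).

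Urod encodes uroporphyrinogen decarboxylase, which trims the side chains of the ring, and was the most abundant member in both diets. It had 39.2, 38.3 and 39.3 FPKM with SGFD, against 33.8, 34.4 and 35 FPKM with CD. The lowest SGFD library was above the highest CD library. The ratio of means was 1.13, and the log2 fold change was 0.17 ± 0.04 (SE), with an interval from 0.08 to 0.27 (limma, adjusted p = 0.00615). The rise depended on the scaling. Summed FPKM was higher in every SGFD library than in every CD library. After FPKM were rescaled to the same sum in every library the log2 fold change was 0.03 and Urod did not pass (limma, adjusted p = 0.52).

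Cpox and Ppox, the consecutive oxidases at the start of the mitochondrial end of the pathway, were both lower with SGFD. Cpox encodes coproporphyrinogen oxidase, which yields protoporphyrinogen. It had 9.58, 12.1 and 10.3 FPKM with SGFD, against 13.7, 13 and 13.7 FPKM with CD. Every SGFD library was below every CD library, though SGFD replicate 2 came close. The log2 fold change was -0.31 ± 0.08 (SE), with an interval from -0.49 to -0.13 (limma, adjusted p = 0.0077). This call ended after median-ratio scaling, which places the typical gene near 0, with a log2 fold change of -0.17 (limma, adjusted p = 0.0819), and after quantile normalization, with -0.15 (limma, adjusted p = 0.117).

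Ppox encodes protoporphyrinogen oxidase, an inner membrane flavoenzyme that yields protoporphyrin. It had 11.9, 12.2 and 9.2 FPKM with SGFD, against 16.9, 14.9 and 16.5 FPKM with CD. The diets did not overlap, SGFD replicate 3 was lowest, and the SGFD mean was 0.69 of the CD mean. The log2 fold change was -0.50 ± 0.10 (SE), with an interval from -0.72 to -0.29 (limma, adjusted p = 0.0014), and Ppox passed under each filter, pseudocount, scaling and left-out library tried. In the annotation 791 exonic bases of Ppox overlap exons of B4galt3 on the opposite strand. The library kit keeps strand, but whether the counting used it is not given in the sources used here. B4galt3 itself had 14.8 ± 0.877 FPKM with SGFD and 15.6 ± 1.06 FPKM with CD and did not pass (limma, adjusted p = 0.394). Exons of Cpox, Alas1 and Alas2 overlap other genes on the opposite strand as well, by 204 bases (Gpr15), 465 bases (an antisense transcript of Alas1) and 311 bases (Apex2).

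Fech encodes ferrochelatase, the iron-sulfur enzyme that inserts iron. It had 11.4, 11.5 and 10.6 FPKM with SGFD, against 10.1, 12.1 and 12.5 FPKM with CD. The SGFD values fell inside the range of the CD values, whose lowest was replicate 1. The log2 fold change was -0.04, with an interval from -0.22 to 0.14 (limma, adjusted p = 0.694); the fitted change of Alas1 lies outside this interval. The signs of Alad and Fech turned with the scaling, to 0.10 for both after median-ratio scaling and to 0.14 for Alad and 0.13 for Fech after quantile normalization, without passing.

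**Figure D2:**
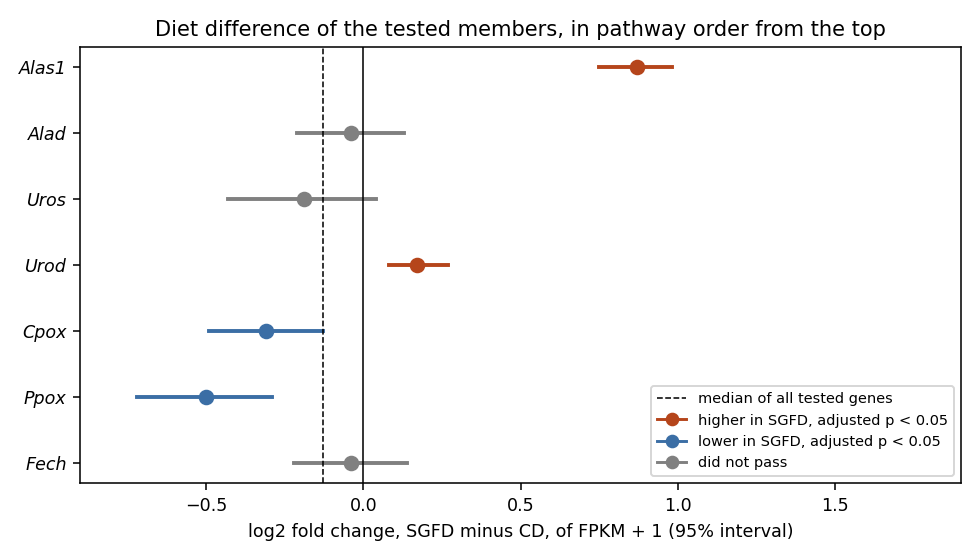
Log2 fold change, SGFD minus CD, of FPKM + 1 for the 7 tested members in pathway order from top to bottom, with 95% intervals from limma; the dashed line is the median of all tested genes, -0.13. Alas1 at 0.87 stands apart from the other members, which lie between -0.50 and 0.17.

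Of the 7 tested members 2 passed higher and 2 lower, a share close to the 59.4% of all tested genes that passed, and their median log2 fold change was -0.04 beside -0.13 over all tested genes. All 7 passed the filter in both diets. Long genes tended to be lower with SGFD in these libraries: with tested genes split into 10 bins by annotated exonic length, the shortest bin had a median of 0.11 on the log2 scale and the longest one of -0.35. Alas1, with 6174 exonic bases, was 1.04 above the median of its own length bin, and Urod was 0.19 above. The differences from the bin's median were -0.37 for Ppox, -0.11 for Cpox and 0.31 for Fech, the longest member by annotated exonic length. That length counts every annotated exon of a gene and may differ from the length behind the FPKM, so the bins are approximate. The part of transcript length in these differences was not tested.

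The order of the levels differed between diets. With SGFD it was Urod at 38.9 FPKM, Alas1 at 31.7 FPKM, then Fech, Ppox, Cpox and Alad between 11.2 and 10.5 FPKM, Uros at 3.01 FPKM and Alas2. The ranges of Fech, Ppox, Cpox and Alad overlapped from each gene to the next in SGFD, so these 4 did not differ beyond their spread. With CD it was Urod at 34.4 FPKM, Alas1 at 16.9 FPKM, Ppox at 16.1 FPKM, Cpox at 13.4 FPKM, Fech at 11.6 FPKM, Alad at 10.8 FPKM, Uros at 3.57 FPKM and Alas2. There the ranges of Alas1 and Ppox overlapped, as did those of Fech and Alad. Alas1 made up 27.1% ± 0.244 of the summed FPKM of the members with SGFD and 15.9% ± 0.59 with CD (SD, n = 3 each). The sum of the members other than Alas1 was 85.4 ± 1.83 FPKM with SGFD and 89.9 ± 1.99 FPKM with CD. The ratio of Alas1 to Fech, the first enzyme to the last, was 2.81, 2.76 and 2.95 in SGFD libraries and 1.62, 1.45 and 1.35 in CD libraries. These shares and ratios follow from the levels above and were not tested.

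**Figure D3:**
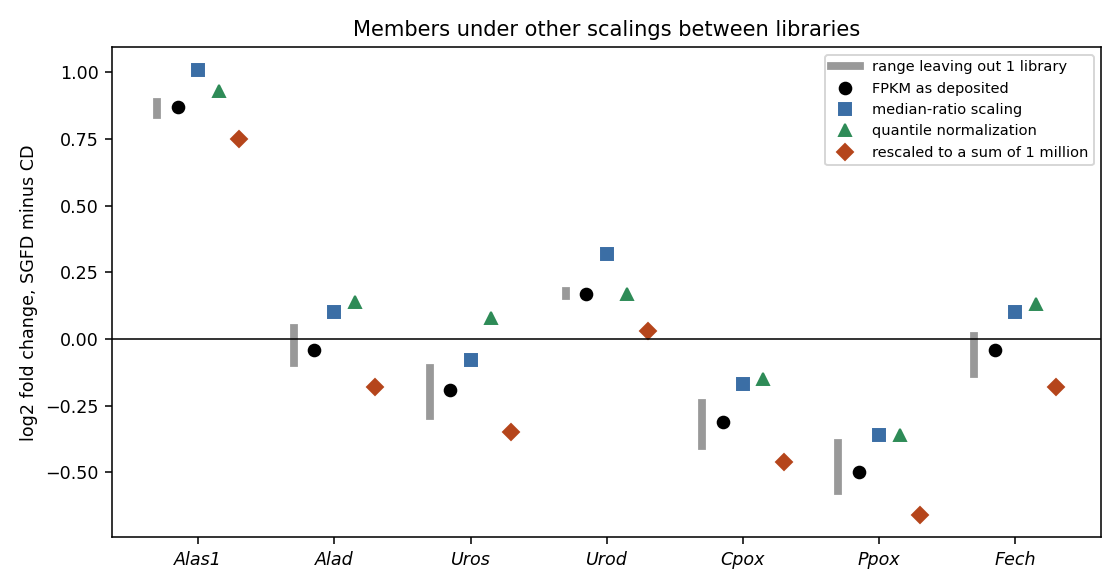
Log2 fold change, SGFD minus CD, of each tested member with FPKM as deposited (circles), under 3 other scalings between libraries (squares, triangles, diamonds), and the range when 1 library is left out (grey bars). Alas1 stays between 0.75 and 1.01 in all of them and Ppox between -0.66 and -0.36, while Alad, Uros and Fech lie on both sides of 0.

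The genes whose log2(FPKM + 1) followed a member most closely over the 6 libraries were named by Pearson correlation among genes averaging at least 5 FPKM. They share the libraries and the diet difference with the member, so r is a description. For Alas1 they were Ola1 (r = 0.9995), Hp (r = 0.9992) and Igsf6 (r = 0.9989), and 109 genes reached an r of 0.99. Hp encodes haptoglobin and had 65.4 FPKM with SGFD and 4.23 FPKM with CD, so likeness of pattern went with a much larger difference. For Urod they were Psma3, Nmt1 and Pes1, for Cpox Naa30, Arl5a and Zbtb33, and for Ppox Akap11, Gtf3c2 and Zkscan3, each at an r between 0.9962 and 0.9979. For Alad and Fech no gene reached 0.99.

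Carriers listed around heme synthesis, most of which move porphyrins, heme, iron or glycine across membranes, changed in both directions. Of 12 tested, 4 rose and 4 fell, and the median was -0.02 on the log2 scale. Over all tested genes 17.7% rose and 41.8% fell, the shares to set beside this and the following list counts. After rescaling to the same sum 2 of the carriers rose and 6 fell. Tmem14c, needed in mouse erythroid cells for the mitochondrial step that Ppox serves, had 86.2, 82.7 and 86.8 FPKM with SGFD, against 60.6, 61.3 and 57.9 FPKM with CD, a log2 fold change of 0.50 (limma, adjusted p = 9.58e-06). All 3 SGFD libraries were above the CD libraries. Slc25a37 (mitoferrin 1, which brings iron to the mitochondrion) had 14.1 ± 2.44 FPKM with SGFD and 21.7 ± 2.33 FPKM with CD and fell (limma, adjusted p = 0.00124). Abcg2, an exporter of porphyrins, fell as well, with 11.6 ± 0.074 FPKM in SGFD and 15.3 ± 0.694 FPKM in CD (limma, adjusted p = 0.000472). Slc25a38, the mitochondrial glycine carrier that feeds ALAS, had 4.33, 4.8 and 3.49 FPKM with SGFD, against 4.96, 4.85 and 4.99 FPKM with CD, a log2 fold change of -0.20 that did not pass (limma, adjusted p = 0.111). Abcb10, a mitochondrial inner membrane transporter, did not pass either, with a log2 fold change of 0.03.

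Genes that supply succinyl-CoA and glycine to ALAS had 5 rises and no fall among 13 tested (median 0.11 on the log2 scale), a count that followed the scaling: 11 rose after median-ratio scaling, and 1 rose and 2 fell after rescaling to the same sum. Without SGFD replicate 3, CD replicate 2 or CD replicate 3 the count of rises was 3, and without SGFD replicate 2 there was 1 fall. Shmt2, which makes glycine from serine in the mitochondrion, led them, with 125 ± 1.71 FPKM in SGFD and 85.9 ± 5.2 FPKM in CD, and Suclg1, a subunit of succinyl-CoA synthetase, had 104 ± 5.01 FPKM in SGFD and 90 ± 4.56 FPKM in CD, though it did not pass after quantile normalization (limma, adjusted p = 0.247) or rescaling (limma, adjusted p = 0.205). The partner subunits Sucla2 and Suclg2 did not pass, with log2 fold changes of 0.14 and 0.01. Of 15 tested genes of iron-sulfur cluster assembly, on which ferrochelatase depends, 4 rose and 1, Isca2, fell, against 9 and 0 after median-ratio scaling, 5 and 0 after quantile normalization and 1 and 4 after rescaling to the same sum. Isca2 did not pass after quantile normalization (limma, adjusted p = 0.155) or median-ratio scaling (limma, adjusted p = 0.241), nor without CD replicate 1 (limma, adjusted p = 0.0717). Glrx5, whose loss impairs heme synthesis in zebrafish, had 74.5 ± 5.39 FPKM with SGFD and 56.8 ± 3.31 FPKM with CD, while the scaffold gene Iscu had 52.8 ± 1.78 FPKM with SGFD and 52.7 ± 4.14 FPKM with CD.

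Of 4 tested genes of heme breakdown 2 fell and none rose, whereas 1 fell and 1 rose after median-ratio scaling, 2 fell and 1 rose after quantile normalization, and 1 rose without CD replicate 1. Hmox1, the inducible heme oxygenase, had 0.957, 1.21 and 1.17 FPKM with SGFD, against 5.83, 5.42 and 5.83 FPKM with CD, a ratio of 0.195 (limma, adjusted p = 3.16e-07). Hmox2, the constitutive form and by level the main one here, had 41.3 ± 1.46 FPKM with SGFD and 46.4 ± 1.25 FPKM with CD (limma, adjusted p = 0.0104), a fall that ended after median-ratio scaling, with a log2 fold change of -0.02 (limma, adjusted p = 0.804). Hmox1 is abundant in macrophages that clear red cells, and all 7 tested macrophage markers of 13 listed were lower in the same libraries, 6 of them passing the filter through CD alone. Leaving out CD replicate 1, 2 or 3 left 1 that fell, because those 6 then missed the filter and were not tested. Without the filter 12 fell, and at a filter of 5 FPKM none was tested. The summed level of the 13 was 3.88 to 4.48 FPKM with SGFD and 15.1 to 17.1 FPKM with CD, and their part in the result was not tested.

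Of 19 tested regulators of ALAS and sensors of heme or iron 3 rose and 9 fell (median -0.21 on the log2 scale). These shares are close to the 17.7% that rose and 41.8% that fell over all tested genes. The counts were 5 and 6 after median-ratio scaling, 3 and 5 after quantile normalization and 0 and 14 after rescaling to the same sum. In the fit without trend or robust settings 1 rose, as was so without SGFD replicate 3, CD replicate 2 or CD replicate 3. The erythroid factor genes Nfe2, Gata1 and Klf1 fell, under each of these scalings too. Nfe2 had 63.9 ± 3.39 FPKM with SGFD and 91.8 ± 1.24 FPKM with CD (limma, adjusted p = 1.4e-05), and Gata1 had 4.7 ± 0.341 FPKM with SGFD and 6.98 ± 0.645 FPKM with CD. Ireb2, an iron regulatory protein that binds iron-responsive elements such as that of the Alas2 mRNA, fell, with 8.82 ± 1.35 FPKM in SGFD and 12.4 ± 0.356 FPKM in CD. Bach1, a repressor released by heme, fell (log2 fold change -0.28, limma, adjusted p = 0.0161), but did not pass after median-ratio scaling (limma, adjusted p = 0.151), quantile normalization (limma, adjusted p = 0.32), or without SGFD replicate 1 (limma, adjusted p = 0.0659) or CD replicate 1 (limma, adjusted p = 0.0705). Clpx and Lonp1 encode mitochondrial proteins that act on ALAS. Lonp1 rose, with 58.2 ± 0.349 FPKM in SGFD and 50.9 ± 0.509 FPKM in CD, though not after rescaling (limma, adjusted p = 0.296). Clpx had 18.7 ± 0.654 FPKM in SGFD and 19.2 ± 0.166 FPKM in CD and did not pass. Nrf1, which encodes a nuclear respiratory factor, had 5.34 ± 0.066 FPKM with SGFD and 6.09 ± 0.3 FPKM with CD and did not pass (limma, adjusted p = 0.0775), although it passed after rescaling with a log2 fold change of -0.31 (limma, adjusted p = 0.00788) and in the fit without trend or robust settings (limma, adjusted p = 0.0328), and its sign turned after quantile normalization, to 0.07. Eif2ak1, the heme-regulated kinase of translation initiation, had a log2 fold change of 0.04.

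**Figure D4:**
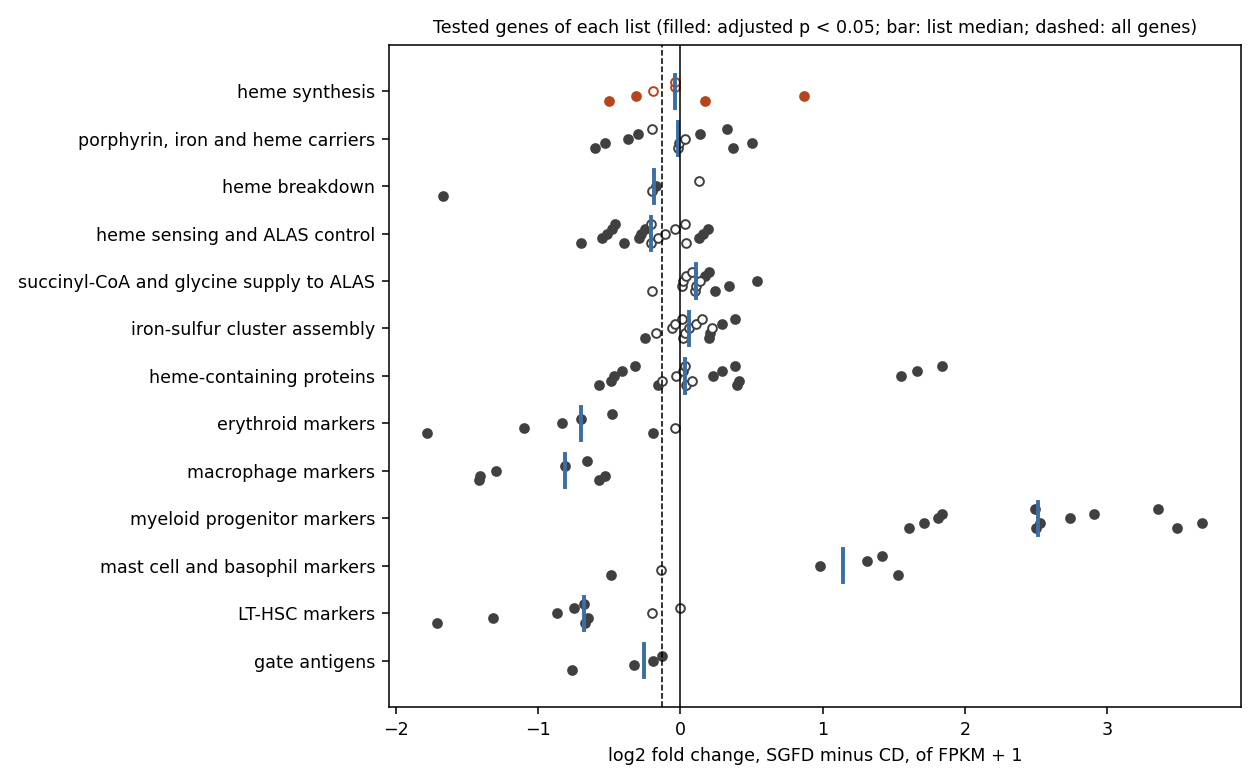
Log2 fold change, SGFD minus CD, of FPKM + 1 for the tested genes of each list; filled points passed an adjusted p of 0.05, open points did not, blue bars are list medians and the dashed line is the median of all tested genes, -0.13. The heme synthesis genes (orange) spread around 0 with Alas1 at 0.87, erythroid markers have a median of -0.70 and myeloid progenitor markers one of 2.52; a few genes stand in more than 1 list.

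Marker levels of other blood cells moved in the same libraries. Of 18 erythroid markers with a row, Alas2 not among them, 7 were tested, of which 6 fell and none rose, and 13 fell without the filter. The summed level of the 18 was 130 to 137 FPKM with SGFD and 262 to 266 FPKM with CD, most of it from Car2. The globin gene Hbb-bt was the tested marker that did not pass, with 4.75 ± 1.42 FPKM in SGFD and 4.78 ± 0.0519 FPKM in CD (limma, adjusted p = 0.846). Slc4a1, which encodes the anion exchanger of red cells and marks late erythroid cells, was near the floor. It was listed at 0 in all 3 SGFD libraries and at no more than 0.117 FPKM in CD. All 12 myeloid progenitor markers rose, 1 of them passing the filter through SGFD alone. That marker missed the filter when SGFD replicate 1, 2 or 3 was left out, and the other 11 rose. Their summed level was 3650 to 4057 FPKM with SGFD and 897 to 926 FPKM with CD. Of 6 tested mast cell and basophil markers 4 rose and 1 fell (2 without CD replicate 2), with summed levels of 93 to 102 FPKM in SGFD and 80.4 to 86.3 FPKM in CD. Of 9 tested LT-HSC markers 7 fell and none rose, with summed levels of 73.1 to 76 FPKM in SGFD and 147 to 153 FPKM in CD. The part of these shifts in the rise of Alas1 and in the falls of Cpox and Ppox was not tested, and diet and cell composition cannot be told apart here.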

How the data were processed

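RNA sequencing of 6 libraries (3 SGFD, 3 CD) was analysed from the authors' gene tables. Per the submitters' processing notes, the tools were fastp, HISAT2 and StringTie; GRCm38 and mm10 are the builds named. Versions are not given in the sources used here. The values that the authors deposited were read as FPKM. No source used here names this unit: it was inferred, since a gene's 6 values were multiples of 1 step for all 14612 genes above 0 in at least 2 libraries, within 0.02 fragments, and 0 of 300 perturbed genes were. Fragment numbers hold up to a factor per gene.

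The fit used limma 3.58.1 (R 4.3.3) on log2(FPKM + 1), with trend and robust empirical Bayes and diet as the single term. Fold changes on this scale understate those of low genes. The fit was tested on simulated data. P-values are two-sided and adjusted over all tested genes. Count tests were not used, as the values are not counts. Besides all members, up to 4 genes of smallest p per list and a panel chosen by role were named. Isca2, Lonp1, Slc4a1, Cyba, Ptgs1, Sqle, Cyb5r3, B4galt3, Gpr15 and Apex2 were named after their values were seen. Members and lists were chosen with earlier results of these data known. Positions and exonic lengths came from GENCODE, with a length for 96.9% of tested genes, and promoters from RefSeq. Alternatives were other filters, pseudocounts, scalings, a fit without trend or robust settings, a block by replicate number, a threshold of 0.01 and leaving out each library.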

Additional observations from a re-analysis of the deposited data

How the results depend on the processing

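Alas1 and Ppox kept their direction and passed under every alternative run, Alas1 at log2 fold changes between 0.75 and 1.01. After median-ratio scaling the median of all tested genes was 0.01 in place of -0.13, and 53.8% of the genes that passed were higher in place of 29.7%; it was 47% after quantile normalization and 14% after rescaling to the same sum in every library. Cpox did not pass after the first (-0.17) or the second (-0.15), Urod did not pass after rescaling (0.03), and Uros passed after rescaling (-0.35). Signs turned for Alad (0.10) and Fech (0.10) after median-ratio scaling and for Alad (0.14), Uros (0.08) and Fech (0.13) after quantile normalization, none of which passed. The median of all tested genes was -0.02 after quantile normalization and -0.27 after rescaling. Rescaling divides by the summed FPKM, which was 464222 to 485048 in SGFD libraries and 427769 to 433592 in CD libraries. It thus lowers SGFD values against CD values. Why the sums differ between diets was not tested. Leaving out 1 library gave 5184 to 6528 genes that passed, against 6313, and 4 to 5 members; values ran from 0.84 to 0.89 for Alas1, -0.09 to 0.04 for Alad, -0.29 to -0.11 for Uros, 0.16 to 0.18 for Urod, -0.4 to -0.24 for Cpox, -0.57 to -0.39 for Ppox and -0.13 to 0.01 for Fech. Uros passed without SGFD replicate 1. Of 360 recomputed list counts, 37 moved by over 1.5 times.

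Same-numbered libraries did not deviate together (r of -0.007, -0.227 and -0.133), and differently numbered ones had r between -0.095 and 0.216. With so few libraries these values do not settle whether samples of the same number were paired. With the replicate number as a block 5793 genes passed, and the same 4 members passed. Among the members depth limited Alas2 most.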

Other observations

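Users of heme went different ways. Of 20 tested genes listed for heme-containing proteins or their assembly 8 rose and 6 fell, with a median of 0.03 on the log2 scale. After rescaling to the same sum 6 rose and 8 fell. Sqle and Cyb5r3 on this list encode flavoenzymes without heme, and Sqle was 1 of the 6 that fell. The peroxidase gene Mpo, also a myeloid progenitor marker, had 1733, 1582 and 1820 FPKM with SGFD, against 476, 487 and 463 FPKM with CD. Cybb, the heme-bearing subunit of the phagocyte oxidase, had 3.73 ± 0.413 FPKM with SGFD and 0.494 ± 0.0743 FPKM with CD (SD, n = 3 each) and passed the filter through SGFD alone. Its partner Cyba had 80.7 ± 5.48 FPKM with SGFD and 82.2 ± 5.28 FPKM with CD and did not pass (limma, adjusted p = 0.718). Ptgs2, the inducible prostaglandin synthase, had 12.2, 15.7 and 10.7 FPKM with SGFD, against 4.5, 3.13 and 3.53 FPKM with CD. Its paralogue Ptgs1 was among the 6 that fell, with 3.08 ± 0.253 FPKM in SGFD and 5.07 ± 0.304 FPKM in CD (limma, adjusted p = 0.000301). Sdhd, an anchor subunit of respiratory complex II, had 121 ± 5.71 FPKM with SGFD and 91.3 ± 1.59 FPKM with CD (limma, adjusted p = 4.94e-05).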
